A study of Mus musculus with 8 samples.

Results

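This section describes 10 autophagy genes, Gabarap, Gabarapl1, Gabarapl2, Map1lc3a, Map1lc3b, Atg5, Atg7, Becn1, Ulk1 and Sqstm1, in neural tube tissue of mouse embryos. They are 10 of the 26608 genes that each count file lists. Tags were counted for 9 of them, and the same 9 passed the filter on low counts. The members were chosen by gene symbol around a measured value, the higher level of Gabarap in open neural tube of diabetic dams than of normal dams. Every value of the open libraries of diabetic dams is therefore given as a description with no test. The tests are restricted to contrasts that leave those libraries out of the comparison. The normal open libraries were the other side of that choice. For Gabarap, the test between regions in normal dams is therefore not independent of it.

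The embryos were of the FVB strain at gestation day 8.5, and the dams were either diabetic or normal. How diabetes was brought about is not given in the sources used here. Tissue was taken by laser microdissection from cryosections on either side of closure site 1, the place where the neural folds of the mouse first meet. Open tissue lay directly in front of that site and closed tissue directly behind it, so open and closed also differ in axial level. The 4 groups were normal open (libraries 09 and 10), normal closed (11 and 12), diabetic open (13 and 14) and diabetic closed (15 and 16), with 2 libraries each made from 7 ng of total RNA. The labels give no number of embryos or litters per library and do not tell whether the regions share embryos. The p-values below thus measure only the spread between these libraries, which may be technical in part. In the normal groups that spread also holds a difference in sex-linked genes. Ddx3y, a gene of the Y chromosome, stood at 204 CPM (defined below) in library 09 and 279 CPM in library 11. In libraries 10 and 12 it stood at 0.848 and 0.456 CPM. Xist, transcribed from the inactive X chromosome of female cells, stood at 0.10 and 4.35 CPM in libraries 09 and 11. In libraries 10 and 12 it stood at 289 and 305 CPM. Library numbers run from 09 to 12 for normal dams and from 13 to 16 for diabetic dams. Anything that followed this order and the state of the dam thus cannot be told apart. All 4 diabetic libraries had Ddx3y at 192 to 261 CPM and Xist at 1.61 to 2.93 CPM. These sex-linked genes are therefore not balanced between the dams, in open or in closed tissue. Within normal dams and within diabetic dams, open and closed tissue were alike in this respect. The part of sex in the values of the members was not tested.

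Macroautophagy encloses parts of the cytoplasm in a double membrane, the autophagosome, which then fuses with the lysosome. Kinase complexes start the membrane, enzymes that resemble those of ubiquitin conjugation attach small proteins to its lipid, and receptors bring in cargo. In mouse embryos autophagy is active in the developing nervous system, and loss of Ambra1, a partner of Becn1, is known to disturb closure of the neural tube. Transcript levels such as those below do not measure the rate of autophagy itself.

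The assay, SOLiD SAGE, counts a short tag near the 3′ end of a transcript. Levels are given in CPM, counts relative to the size of the library, with library sizes scaled by the trimmed mean of M values (TMM). Because a transcript gives about 1 tag whatever its length, levels were not divided by length, also where genes are set side by side. How well each gene's tag is recovered was not tested. The tags that 5 of the members would give are shown to make plain what was counted for each gene, and that the predicted tags of the paralogs differ in sequence. Each runs from the last CATG of the main GENCODE M21 transcript and is written 5′ to 3′, with the CATG site in capitals. Neither the enzyme nor the tag length is stated in the labels, so the CATG site and the length of 27 bases are assumptions.
Gabarap: CATGaagaagacttctttctatacatt
Gabarapl1: CATGacatttcaattcatctctaccaa
Gabarapl2: CATGgtggctcacaaccgtatataatg
Map1lc3a: CATGttcgggttgctcttttgggtgct
Map1lc3b: CATGttgagttttttttttaattttta

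No predicted tag of the 10 members occurred as an exact match in a transcript of another gene. Near matches, the opposite strand and the rest of the genome were not searched. On assembly GRCm38, which is not the mm9 build of the counts, the Gabarap tag lies in coding sequence at chr11:69994465-69994491 on the plus strand. The tags of the other 9 members lie in 3′ UTRs. On the plus strand they stand at chr6:129542184-129542210 for Gabarapl1, chr8:111953509-111953535 for Gabarapl2, chr2:155277819-155277845 for Map1lc3a and chr8:121598699-121598725 for Map1lc3b. The Map1lc3b tag is overlapped by Zcchc14 on the other strand and by Gm20388 on the same strand, and the Becn1 tag by Cntd1 on the other strand. The labels state neither the use of strand nor the treatment of tags that match several genes, so the counts of Map1lc3b and Becn1 are uncertain in this respect. Gabarapl1 and Atg7 each have 2 distinct predicted tags over their principal transcripts, so their counts are uncertain in another way. Which members have the most certain counts was not tested.

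Library totals ran from 5041586 to 16655583 counts, with 9920 to 12924 genes detected. Diabetic open library 13 stands apart from the other libraries. The neural progenitor factor Sox2 stood at 30.2 CPM in it and at 276 CPM or more elsewhere, and its summed level of 8 neural markers was 112 CPM against 789 to 1116 CPM in the other 7 libraries. Fold changes, non-overlap counts and medians of the contrasts with diabetic open tissue are given with and without it. In bulk tissue of this kind, fewer cells of a type and less RNA per cell cannot be told apart.

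Gabarap, which acts in the growth and late maturation of the autophagosome membrane, had the highest level of the 10 genes, with a mean of 318 CPM over the 8 libraries. It stood at 117 and 159 CPM in normal open libraries 09 and 10, from 1165 and 938 counts. In normal closed libraries 11 and 12 it stood at 318 and 213 CPM, from 1753 and 1400 counts. In diabetic open libraries 13 and 14 it stood at 531 and 442 CPM, from 9030 and 3764 counts, and in diabetic closed libraries 15 and 16 at 447 and 317 CPM, from 2219 and 2271 counts. The order of the group means was thus normal open, 138 ± 29.7 CPM, normal closed, 265 ± 74.6 CPM, diabetic closed, 382 ± 92.1 CPM, and diabetic open, 486 ± 62.8 CPM (SD, n = 2 each). Only the step from normal open to normal closed separated the libraries of neighbouring groups. Diabetic closed library 16 lay just under normal closed library 11, and diabetic closed library 15 just above diabetic open library 14.

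In open tissue the mean Gabarap level of diabetic dams was 3.52 times that of normal dams. The log2 fold change was 1.82 (SE 0.32), and 1.67 (SE 0.40) without library 13. These values chose the members and carry no test. The fold stood at the 87.3 percentile of the fold changes of all 11779 genes that passed the filter, so many genes had a larger positive fold change between the same libraries. In diabetic dams closed tissue differed from open tissue by a log2 fold change of -0.35 (SE 0.31), and by -0.20 (SE 0.41) without library 13. Both contrasts share the diabetic open libraries.

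Outside those libraries, Gabarap was higher in both closed than in both open libraries of normal dams, with a mean ratio of 1.92. The low normal open level was part of what chose Gabarap, so this contrast is not independent of the choice. The log2 fold change was 0.94 (SE 0.32), with an unadjusted p of 0.0141 and an adjusted p of 1 in edgeR's quasi-likelihood test with Benjamini-Hochberg adjustment over all genes. The difference therefore did not pass the threshold of 0.05. Between diabetic and normal dams in closed tissue the ratio was 1.44 and the log2 fold change 0.53 (SE 0.31), with an unadjusted p of 0.125 and an adjusted p of 1 in the same edgeR test. The 2 groups overlapped by the narrow margin between libraries 16 and 11, and the fold change was 0.28 without library 15 and 0.88 without library 11.

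**Figure D1:**
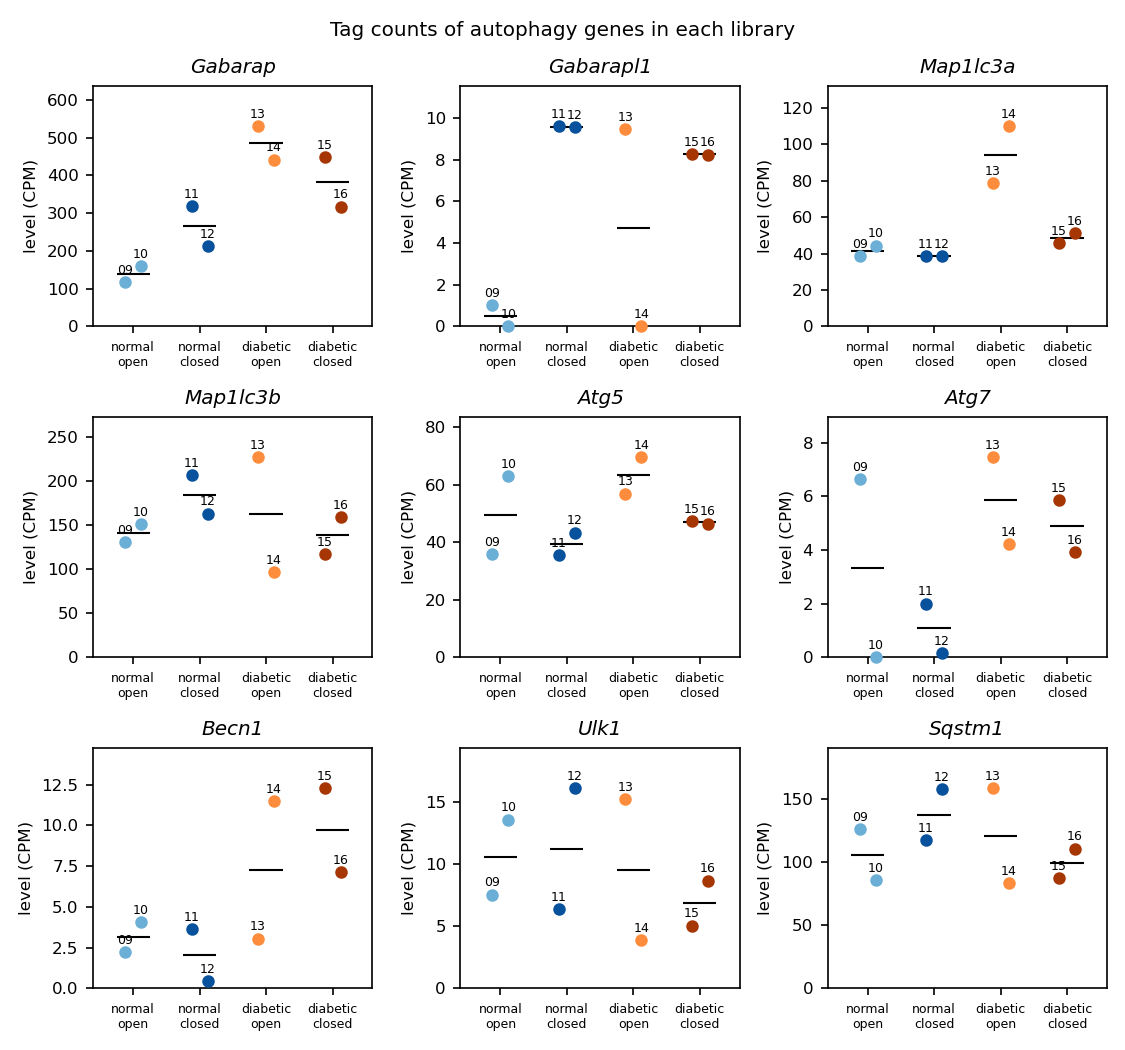
Level in CPM of the 9 members with a count, in each library (points, with library numbers) by group on the horizontal axis; black bars are group means of 2 libraries. Gabarap reaches 531 and 442 CPM in diabetic open tissue against 117 and 159 CPM in normal open tissue, and Map1lc3a is highest in the same 2 diabetic libraries.

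Map1lc3a, which encodes a protein of the autophagosome membrane, was the other member with both diabetic open libraries above both normal open ones. It stood at 38.7 and 44.3 CPM in normal open, 38.6 and 38.7 CPM in normal closed, 78.7 and 110 CPM in diabetic open, and 45.6 and 51.1 CPM in diabetic closed tissue. All 6 libraries other than diabetic open ones lay between 38.6 and 51.1 CPM. The open-tissue log2 fold change between dams was 1.19 (SE 0.38), and 1.40 (SE 0.49) without library 13, so it did not rest on that library. Closed against open tissue of diabetic dams gave -0.96 (SE 0.38), and -1.18 (SE 0.49) without library 13. In closed tissue both diabetic libraries lay above both normal ones, with a log2 fold change of 0.32 (SE 0.38), which did not pass the edgeR test (adjusted p = 1).

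Map1lc3b, whose product is widely used to follow autophagosomes, did not share the pattern of Gabarap. It stood at 130 and 151 CPM in normal open, 206 and 163 CPM in normal closed, 227 and 96.9 CPM in diabetic open, and 117 and 159 CPM in diabetic closed tissue. The diabetic open libraries were the highest and the lowest of all 8, so their log2 fold change against normal open tissue was 0.20 (SE 0.40) with library 13 and -0.54 (SE 0.42) without it. In closed tissue both diabetic libraries lay below both normal ones, with a log2 fold change of -0.42 (SE 0.40), which did not pass the edgeR test (adjusted p = 1). In normal dams both closed libraries lay above both open ones (0.39, SE 0.40), again without passing it (adjusted p = 1).

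Gabarapl1, a close paralog of Gabarap, was detected at a low level with an uneven spread. It stood at 1.00 and 0 CPM in normal open, 9.62 and 9.57 CPM in normal closed, 9.46 and 0 CPM in diabetic open, and 8.27 and 8.24 CPM in diabetic closed tissue. The nonzero values rested on 10 counts in library 09 and on 41 to 161 counts in the other libraries with tags. The count of 0 in libraries 10 and 14 allows a level of up to 0.509 and 0.352 CPM (3 counts, counting error only). Closed against open tissue of normal dams gave a log2 fold change of 4.16 (SE 2.41) and did not pass the edgeR test (adjusted p = 1). It was 3.21 without library 10 and 9.25 without library 09, where the open group is left at 0. Without library 13 the diabetic open group has no Gabarapl1 count at all, so no fold is given for it.

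Gabarapl2, the remaining paralog, had 0 counts in all 8 libraries, together 65405280 counts. A count of 0 allows 0.176 CPM in the deepest library and 0.605 CPM in the shallowest. Its predicted tag is shown above, and whether such a tag could be counted under this symbol was not tested.

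The ratio of Gabarap to Map1lc3b counts, which does not depend on how libraries are scaled, separated the dams. It was 0.898 and 1.05 in normal open, 1.54 and 1.30 in normal closed, 2.33 and 4.56 in diabetic open, and 3.82 and 1.99 in diabetic closed libraries. Every diabetic library lay above every normal one, with or without library 13. In closed tissue, where the Gabarap levels of the dams overlapped, the ratios did not. Both genes differ in how far their tags can be trusted, since the Map1lc3b tag overlaps other genes. In open tissue the split follows in part from the choice of Gabarap, which used the Gabarap levels of these libraries. The split was noted after the values were seen and was not tested. How many other genes or ratios split the dams in this way was not counted.

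**Figure D2:**
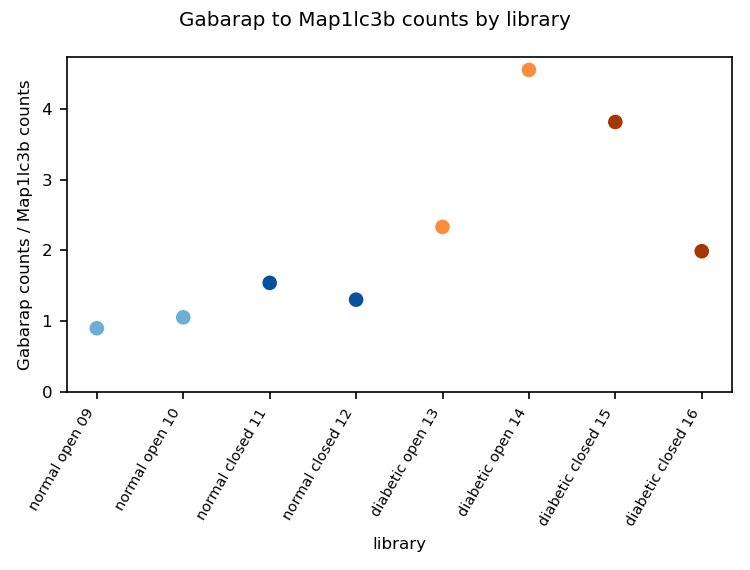
Gabarap counts divided by Map1lc3b counts (vertical axis) in each library (points, colored by group). The 4 normal libraries lie at 0.898 to 1.54 and the 4 diabetic ones at 1.99 to 4.56.

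Atg5 and Atg7 act in the attachment of small proteins to the membrane lipid. Atg5, part of the complex that directs the attachment, stood at 36.0 and 63.1 CPM in normal open, 35.6 and 43.4 CPM in normal closed, 57.0 and 69.7 CPM in diabetic open, and 47.4 and 46.5 CPM in diabetic closed tissue. Both diabetic closed libraries lay above both normal closed ones, and below both diabetic open ones. Closed against open tissue of diabetic dams gave -0.43 (SE 0.42), and -0.56 (SE 0.54) without library 13. The log2 fold change between dams was 0.36 (SE 0.42) in open tissue, or 0.49 (SE 0.54) without library 13, and 0.25 (SE 0.43, edgeR adjusted p = 1) in closed tissue.

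Atg7, the activating enzyme of both conjugation systems, was low. It stood at 6.63 and 0 CPM in normal open, 1.996 and 0.152 CPM in normal closed, 7.46 and 4.22 CPM in diabetic open, and 5.85 and 3.91 CPM in diabetic closed tissue. The 2 lowest values rested on 0 and 1 counts in normal libraries 10 and 12. Both diabetic closed libraries lay above both normal closed ones, with a log2 fold change of 2.18 whose standard error of 2.32 was larger than the value (edgeR adjusted p = 1). It was 1.30 without library 12 and 4.91 without library 11.

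Ulk1 and Becn1 act at the start of the pathway, Ulk1 as the kinase that responds to nutrient signals and Becn1 as a subunit of the lipid kinase complex. Ulk1 stood at 7.54 and 13.6 CPM in normal open, 6.35 and 16.1 CPM in normal closed, 15.2 and 3.87 CPM in diabetic open, and 5.04 and 8.66 CPM in diabetic closed tissue. The diabetic open pair alone spanned nearly the whole range of the 8 libraries, and no 2 groups compared here were separated.

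Becn1 stood at 2.21 and 4.07 CPM in normal open, 3.63 and 0.456 CPM in normal closed, 3.06 and 11.5 CPM in diabetic open, and 12.3 and 7.12 CPM in diabetic closed tissue. Both diabetic closed libraries lay above both normal closed ones, a pattern that 18.0% of all genes showed. The log2 fold change between dams in closed tissue was 2.25 (SE 1.64) and did not pass the edgeR test (adjusted p = 1), with 3 counts in the lowest library. It was 1.43 without library 12 and 4.40 without library 11. In open tissue it was 1.21 (SE 1.59), 1.87 (SE 1.70) without library 13 and -0.06 without library 14, so the higher mean there rested on library 14.

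Sqstm1, the p62 receptor that binds ubiquitin-tagged cargo, had the third highest mean level of the members. It stood at 126 and 85.5 CPM in normal open, 117 and 157 CPM in normal closed, 158 and 83.2 CPM in diabetic open, and 87.3 and 110 CPM in diabetic closed tissue. Both diabetic closed libraries lay below both normal closed ones, with a log2 fold change of -0.47 (SE 0.39, edgeR adjusted p = 1). The open-tissue fold change between dams was 0.19 (SE 0.39) with library 13 and -0.35 (SE 0.45) without it.

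Counted together, none of the 9 measured members passed edgeR's test in closed tissue between dams or in normal dams between regions, and neither did any of the 11779 genes tested, 0% in both. At an unadjusted p below 0.05 there were 0 and 1 members (Gabarap), against 138 and 400 of all genes. Gabarap was chosen in part for its low normal open level, so its place there is not independent of the choice. DESeq2 called 0 members in both contrasts, where it called 0.0170% and 0.304% of all genes with an adjusted p, and limma-voom called 0 members and 0% of all genes. The spread between the libraries of a group was large, with a biological coefficient of variation of 0.859 and a median standard error of 0.952 and 0.957 on the log2 scale in the 2 tested contrasts. Counts simulated at these depths gave edgeR calls for 0% of the genes with a simulated log2 fold change of 1 in both contrasts, and for 6.76% and 16.67% of those with one of 2.

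Groups without overlap were counted as well, beside the share of all genes with the same pattern. In closed tissue 4 of 9 members had both diabetic libraries above both normal ones (Map1lc3a, Atg5, Atg7 and Becn1), against 18.0% of all genes. Another 3 lay below (Gabarapl1, Map1lc3b and Sqstm1), against 13.3%. The direction was thus mixed, and the Gabarapl1 difference, 41 and 59 against 53 and 63 counts, was small. In normal dams 3 of 9 members had both closed libraries above both open ones (Gabarap, Gabarapl1 and Map1lc3b), against 15.9% of all genes. Members below numbered 0, against 12.5% of all genes. For Gabarap the low normal open level was part of the choice.

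For the contrasts with the diabetic open libraries the counts only describe what the choice of members used. In open tissue 2 of 9 members had both diabetic libraries above both normal ones (Gabarap and Map1lc3a), against 17.0% of all genes, and 0 lay below, against 15.4%. In diabetic dams 0 members had both closed libraries above both open ones, against 20.1%, and 2 lay below (Map1lc3a and Atg5), against 13.7%. With library 14 alone standing for diabetic open tissue, 4 of 9 members lay above both normal open libraries and 3 below, against 31.0% and 29.3% of all genes. In diabetic dams 4 then had both closed libraries above library 14 and 2 below, against 43.3% and 31.7%.

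The median log2 fold change of the members in open tissue between dams was 0.81, with 8 of 9 positive, and 0.58 without Gabarap, beside 0.02 over all genes. These medians rested on library 13. Without it they were 0.33, with 5 of 9 positive, and -0.01 without Gabarap, beside -0.05 over all genes. In diabetic dams between regions the median was -0.29 beside 0.03 over all genes, and 0.21 beside 0.19 without library 13. In closed tissue between dams it was 0.25, and 0.02 without Gabarap, beside 0.03 over all genes.

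**Figure D3:**
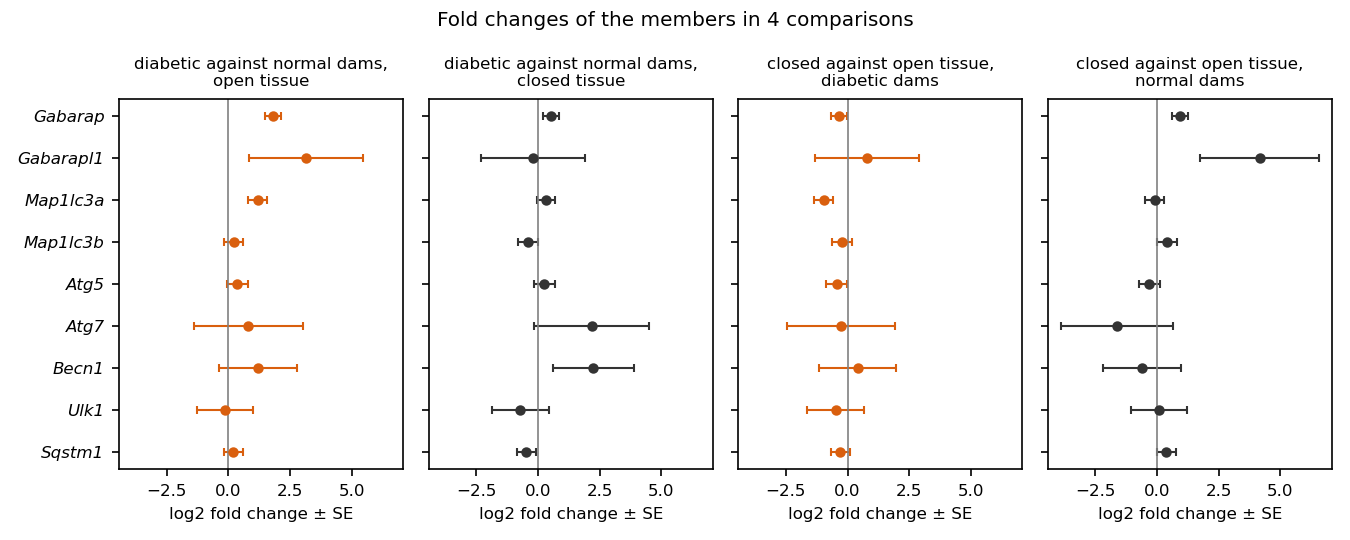
Log2 fold change (points) ± SE (bars) of the 9 measured members in 4 comparisons; orange panels hold the diabetic open libraries and are described only, dark panels were tested. All 8 libraries enter these values, library 13 included. Gabarap is at 1.82 between dams in open tissue and at 0.53 in closed tissue, and the rarely counted Gabarapl1, Atg7, Becn1 and Ulk1 have the widest bars.

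Other genes of the pathway were read from a list of 82, of which 79 were found and 72 passed the filter. None passed edgeR's test in either tested contrast. At an unadjusted p below 0.05 there was 1 of 72 in closed tissue between dams (Mcoln1, a cation channel of the lysosome) and 3 in normal dams between regions (Mtor, Stx17 and Nrbf2), all named after their values were seen. These are 1.39% and 4.17% of the list, close to the 1.17% and 3.40% of all genes. DESeq2 and limma-voom called 0 of the 72. The median log2 fold change was -0.07 in closed tissue between dams, where 31 of 72 were positive, and -0.02 in normal dams between regions, where 35 were. In open tissue between dams it was -0.01 with 35 of 72 positive, and -0.05 with 31 positive without library 13.

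By non-overlap, the list stood near all genes. Of the 72, 15 lay higher and 10 lower in diabetic closed than in normal closed libraries, against 18.0% and 13.3% of all genes. In normal dams 10 lay higher and 11 lower in closed than in open tissue, against 15.9% and 12.5%. In open tissue 10 lay higher and 12 lower in diabetic than in normal dams, against 17.0% and 15.4%, and with library 14 alone 23 and 19, against 31.0% and 29.3%. In diabetic dams 19 lay higher and 10 lower in closed than in open tissue, against 20.1% and 13.7%, and with library 14 alone 35 and 22, against 43.3% and 31.7%.

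Among genes of lipid attachment, Atg3 encodes an enzyme that passes these proteins on to the lipid, and Atg12 a small protein joined to Atg5. Atg3 stood at 59.8 and 86.3 CPM in normal open, 113 and 104 CPM in normal closed, 120 and 171 CPM in diabetic open, and 144 and 93.6 CPM in diabetic closed tissue. Its group means came in the same order as those of Gabarap, but its diabetic closed libraries overlapped those of both neighbouring groups. The shared order was seen after the fact, and how many other genes have it was not counted. Atg12 stood at 45.8 ± 3.88, 28.2 ± 8.85, 52.2 ± 16.2 and 44.5 ± 0.583 CPM in these groups (SD, n = 2 each).

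At the start of the pathway the level of Rb1cc1, the scaffold of the Ulk1 complex, ranged from 38.0 to 69.4 CPM over the 8 libraries. In the lipid kinase complex, Uvrag, a partner of Becn1, ranged from 36.3 to 87.9 CPM. Nrbf2, another subunit, was lower in both closed than in both open libraries of normal dams, 31.6 and 25.8 against 43.8 and 77.0 CPM. Wdr45l (now Wdr45b), which binds the lipid made by that complex, ranged from 128.4 to 243 CPM.

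The mitophagy receptors Bnip3l and Bnip3, which hypoxia is known to induce, had the highest mean levels among the named pathway genes. Bnip3l ranged from 848 to 1603 CPM and stood at 1278 ± 460 CPM in normal open, 1322 ± 392 CPM in normal closed, 1207 ± 508 CPM in diabetic open and 1314 ± 90.7 CPM in diabetic closed tissue (SD, n = 2 each). Bnip3 ranged from 250 to 987 CPM. Both were lowest or next to lowest in diabetic open library 13, where Gabarap was highest.

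Of the lysosome, Ctsd, a protease, ranged from 184 to 914 CPM and Lamp2, a membrane protein, from 60.3 to 191 CPM. Of fusion, Vps16 stood at 98.0 and 111 CPM in diabetic closed and at 91.7 and 69.8 CPM in diabetic open tissue. Vps41 stood at 49.2 and 39.4 CPM and at 31.6 and 33.1 CPM there. Of the controls of growth signalling, Rheb, which activates the mTOR complex, was lower in both diabetic open libraries (503 and 540 CPM) than in both normal open ones (594 and 630 CPM), and Rraga ranged from 83.5 to 162 CPM.

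The genes most like Gabarap over the 8 libraries, by Pearson correlation of log2 CPM among 8070 genes with a mean of at least 50 counts, were 2610029G23Rik (r = 0.958), Prrc3 (0.951), Arid3a (0.945), a gene whose symbol stands in the files as the date 9-Sep (0.940) and Hsp90aa1 (0.937). The 8 points share libraries, depth and groups, and the genes were picked for their likeness, so no p is given. Hsp90aa1, a heat shock chaperone, stood at 241 and 214 CPM in normal open, 318 and 275 CPM in normal closed, 433 and 409 CPM in diabetic open, and 397 and 291 CPM in diabetic closed tissue. Among the members Map1lc3a was most like Gabarap (0.64), at the 92.9 percentile of the same genes. Map1lc3b (0.09) and Sqstm1 (-0.07) were near 0, and Ulk1 stood at -0.30.

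Markers of other cell types also differed between the groups, and their part in the Gabarap values was not tested. The summed level of 7 primitive blood markers was 904 and 993 CPM in diabetic open libraries 13 and 14, with 5 of 7 seen. It was 4.44 and 210 CPM in diabetic closed libraries 15 and 16, and at most 64.4 CPM in the normal libraries. Hba-x alone gave 872 and 977 CPM in libraries 13 and 14 and 203 CPM in library 16, so the sum mostly reflects this gene. Gabarap stood at 531 and 442 CPM in libraries 13 and 14, and at 447 and 317 CPM in libraries 15 and 16. The 8 endothelial markers summed to 135 and 309 CPM in diabetic open, 62.9 to 89.1 CPM in diabetic closed and 27.03 to 59.2 CPM in normal libraries, where the defining marker Tek was at 0 in libraries 10 and 11. The 8 mesenchyme markers summed to 284 to 1323 CPM in diabetic open, 511 to 597 CPM in diabetic closed and 122 to 329 CPM in normal libraries. The 8 heart and endoderm markers reached 133 CPM in library 13 and 12.3 to 36.7 CPM elsewhere, with Gata4 at 0 in libraries 11, 12 and 14. The 6 surface ectoderm markers ranged from 52.0 to 317 CPM, both in diabetic open tissue. The 8 neural markers summed to 112 CPM in library 13 and to 919 CPM in library 14. Both diabetic open libraries had higher blood and endothelial sums than any other library. What part these cell types had in the Gabarap levels was not tested.

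**Figure D4:**
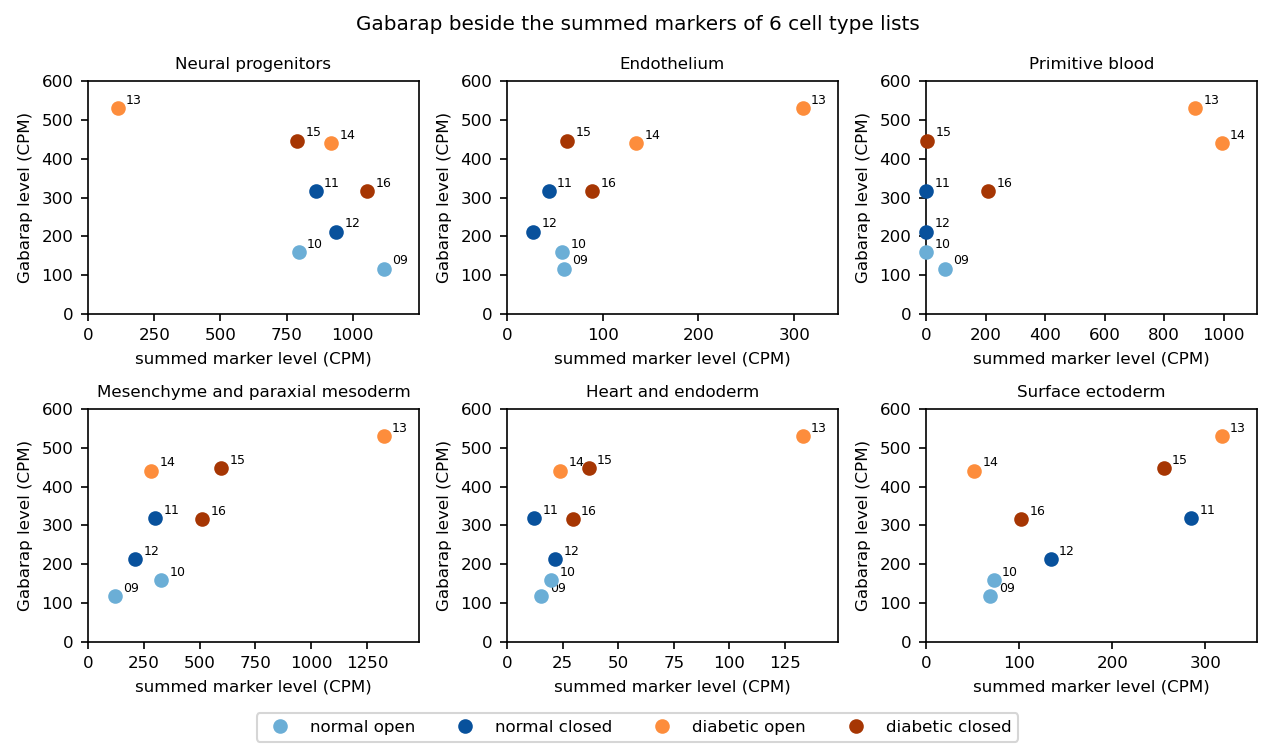
Gabarap level in CPM (vertical axis) against the summed CPM of the markers of 6 cell types (horizontal axis) in each library (points with library numbers, colored by group). Library 13 lies apart on the neural, endothelial, mesenchyme and heart panels, while both diabetic open libraries lie at 904 and 993 CPM on the blood panel.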

How the data were processed

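The deposited files hold raw tag counts per gene symbol, 1 file per library, made by the authors from SOLiD SAGE reads. Per the submitters' processing notes, mm9 was the genome build. For the aligner, counting program, annotation and strand setting, the labels give nothing.

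The software was edgeR 4.0.16, DESeq2 1.42.0 and limma 3.58.1 under R 4.3.3. The filter was filterByExpr with the 4 groups, a minimum count of 10 and a total of at least 15, and 11779 genes passed it. Library totals were 5041586 to 16655583 counts. Contrasts of a model of the 4 groups over all 8 libraries were tested with edgeR's quasi-likelihood F test, with Benjamini-Hochberg adjustment over all genes and a threshold of 0.05. The members and lists were chosen with earlier results of these data known. Named genes were all 10 members, the 2 pathway genes per role with the highest mean level (the levels of 9430023L20Rik and Tmem49 are not described), and the 5 genes most like Gabarap (log2 CPM, prior count 2). Mcoln1, Mtor and Stx17 fall outside this rule and were named for their unadjusted p after their values were seen. Markers, Xist, Ddx3y and genes that overlap a tag are named where a value turns on them. The labels do not tell whether the regions share embryos, so no pairing was fitted. The edgeR test was tested on simulated data. Alternatives were other scalings, filters and tools, and leaving out each library. Tags and coordinates come from GENCODE M21 transcripts of GRCm38.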

Additional observations from a re-analysis of the deposited data

Results flagged for a closer look

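Sets of 4 libraries that share a dam state or a region were examined for a library far from the other 3, in 36 tests over the measured members, and chance flags about 1 in 20. Among the open libraries, Gabarapl1 stood at 9.46 CPM in diabetic open library 13, with the next value at 1.00 CPM. Among the libraries of diabetic dams, Gabarapl1 stood at 0 CPM in diabetic open library 14, with the next value at 8.24 CPM. Both rest on the difference between the 2 diabetic open libraries. Among the libraries of normal dams, Map1lc3a was highest in normal open library 10 (44.3 CPM), and the other 3 lay at 38.6 to 38.7 CPM, so a small distance stands out because those 3 are so alike.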

How the results depend on the processing

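The count of 0 members called was the same under all alternatives run in both tested contrasts, and so was the count of 0 pathway genes. Over all genes, edgeR without the low-count filter called 11 genes in closed tissue between dams and 22 in normal dams between regions, against 0 with it, and none was a member. Fold changes of the members kept their direction under the other scalings, filters and tools in both tested contrasts. Leaving out 1 library turned the direction of 5 of them, none of which had passed the test. Between dams in closed tissue, Ulk1 ranged from -1.20 to 0.13 on the log2 scale. In normal dams between regions, Atg5 ranged from -0.70 to 0.11, Atg7 from -4.36 to 6.10, Becn1 from -2.77 to 0.20 and Ulk1 from -0.74 to 0.58. Larger moves without a change of direction were 1.30 to 4.91 for Atg7 and 1.43 to 4.40 for Becn1 between dams in closed tissue, and 3.21 to 9.25 for Gabarapl1 between regions in normal dams. The Gabarap fold changes ranged from 1.60 to 2.04 between dams in open tissue, 0.28 to 0.88 between dams in closed tissue and 0.59 to 1.19 between regions in normal dams. With limma-voom the median fold change of all genes was 0.12 in normal dams and 0.17 in diabetic dams between regions, and the Gabarapl1 fold change in diabetic dams was 3.15 against 0.79. On library totals without TMM scaling the Gabarap levels of the dams in closed tissue no longer overlapped. No paired analysis was run because the labels do not tell whether the regions share embryos. With a left-out library, the lone library of its group is assumed to vary like the other groups. Depth limits Gabarapl1, Atg7 and Becn1, which had 0 to 10 counts in some libraries.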

Other observations

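The 2 libraries with the lowest Atg7 level were also those with a high level of Xist, which is transcribed from the inactive X chromosome of female cells. Atg7 had 0 counts in normal open library 10 and 1 count in normal closed library 12, where Xist stood at 289 and 305 CPM. Xist was at most 4.35 CPM in the other 6 libraries, where Atg7 had 11 to 127 counts. Both Xist libraries came from normal dams, so this difference and the state of the dam cannot be told apart over all 8 libraries. Within normal dams Atg7 stood at 6.63 and 1.996 CPM in libraries 09 and 11. The pattern was noticed after the values were seen and was not tested, and how many other genes show it was not counted.

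The ratio of Gabarap to Sqstm1 counts was 0.931 and 1.86 in normal open, 2.71 and 1.35 in normal closed, 3.35 and 5.31 in diabetic open, and 5.12 and 2.87 in diabetic closed libraries. All 4 diabetic libraries lay above all 4 normal ones for this ratio. The ratio of Map1lc3a to Map1lc3b counts was 0.320 to 1.14 in diabetic and 0.187 to 0.297 in normal libraries. These ratios share Gabarap or Map1lc3b with the ratio given before, so they add no separate support, and they were not tested. How many other ratios split the dams in this way was not counted. The dams also differ in library order and in sex-linked genes. For the ratio to Sqstm1, the open-tissue part again follows in part from the choice of Gabarap.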
